A study of Homo sapiens with 6 samples.

Results

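The genes for SR proteins, hnRNP proteins and related splicing regulators were examined in 3D and 2D cultures of HCC827. This established human line comes from a lung adenocarcinoma and carries mutant EGFR. The members were the protein-coding rows of the table whose names start with SRSF, HNRNP, RBFOX, CELF or MBNL, together with PTBP1, PTBP2, PTBP3, TRA2A, TRA2B and CLK1 to CLK4. They numbered 59 of 60504 genes. In the 3D group the cells were seeded at 50000 per droplet of growth factor reduced Matrigel, an extract of basement membrane that sets as a gel, and grew as tumoroids for 12 to 16 days. In the 2D group 1000000 cells were seeded per uncoated flask and grew as a monolayer for 4 to 6 days. No other agent, genotype or time separated the groups, and both used the same complete medium with serum. There were 3 poly(A) RNA libraries for 3D and 3 for 2D, and the question was which genes change with the culture format. Culture time, seeding number and contact with the gel differed together with the geometry, and their effects cannot be told apart. Whether same-group libraries stem from different cultures is not stated, and the p-values reflect the spread among these libraries alone, which may be technical.

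Pre-mRNA splicing is carried out by the spliceosome, and regulators bound to the transcript decide which exons it keeps. SR proteins bind exonic enhancers through RNA recognition motifs and recruit the spliceosome through a tail rich in arginine-serine dipeptides, which CLK kinases in the nucleus and SRPK kinases in the cytoplasm phosphorylate. hnRNP proteins coat nascent RNA and often oppose SR proteins by silencing exons. CELF, MBNL, RBFOX and PTBP proteins switch exons between tissues and developmental stages. Many SR and hnRNP genes restrain their own output by splicing in a poison exon that sends the transcript to nonsense-mediated decay, so a gene level here can include RNA that makes no full protein.

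Values were TPM, a share of each library's RNA already divided by transcript length. TPM keeps no record of depth, so the depth is unknown and no counting interval is given. Fewer cells of a kind and less RNA per cell cannot be told apart in such data. Of all genes, those whose 6-library mean reached 1 TPM entered a limma fit of log2(TPM + 1), and a gene was called at a Benjamini-Hochberg adjusted p under 0.05 over all 15042 tested genes. Every log2 fold change below is on that scale, as 3D over 2D, and comes out too small for genes at low TPM.

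The libraries matched their label as lung epithelial cells. EPCAM, an epithelial surface antigen, averaged 576 TPM in 3D and 597 TPM in 2D, and NKX2-1, the lung lineage factor, 66.5 TPM in 3D and 62.2 TPM in 2D. The 9 epithelial markers summed to 5542, 5403 and 9272 TPM in 3D and to 8008 to 10427 TPM in 2D, so only 3D replicate 3 reached the 2D range. KRT7 was called lower in 3D. KRT18, KRT8 and KRT19 were not called, with log2 fold changes of -0.77, -0.65 and -0.51. Of the 9 markers 5 had negative and 4 positive values. Summed markers of fibroblasts (6 genes) ranged over 6.99 to 12.1 TPM in 3D and 2.10 to 2.96 TPM in 2D, with COL3A1 listed at 0 throughout and COL1A1 called higher in 3D. The 4 endothelial genes summed to 1.51 to 3.98 TPM in 3D and 0.68 to 1.46 TPM in 2D. Both sums were therefore low in every library and higher in 3D, though the endothelial sums came close, at 1.51 and 1.46 TPM. COL1A1 made up most of the fibroblast sum in every library, and no endothelial gene was abundant enough to be tested. Not every gene followed its sum. PECAM1 averaged 0.56 TPM in 3D and 0.74 TPM in 2D, and DCN 0.0733 TPM in 3D and 0.133 TPM in 2D. VWF, KDR, CDH5, LUM, PDGFRB and COL1A2 had higher means in 3D. The 5 leukocyte genes summed to 45.6 to 86.9 TPM in 3D and 68.6 to 96.2 TPM in 2D, nearly all of it CD68, and PTPRC averaged 0.113 TPM in 3D and was listed at 0 in 2D. The 5 neuron genes summed to 64.7 to 119 TPM in 3D and 40.0 to 128 TPM in 2D, nearly all TUBB3 and SYT1, of which SYT1 was called higher, with SNAP25 and STMN2 each at 0.0467 TPM in 3D and at 0 in 2D. The 5 muscle genes summed to 1.41 to 4.87 TPM in 3D and 1.24 to 2.95 TPM in 2D, mostly TNNT2. Immediate early genes moved with the culture, with 19 of 22 tested genes higher and none lower in 3D. Their largest changes were in ATF3, with 763 ± 258 TPM in 3D and 14.9 ± 2.47 TPM in 2D, and FOSB, with 315 ± 125 TPM in 3D and 6.58 ± 1.13 TPM in 2D (mean ± SD, n = 3 each). Of 13 heat shock genes none was called higher and HSPB1 was called lower, with a log2 fold change of -0.49, a call lost under 12 of 17 alternatives and whichever library was left out. DNAJA1 had 0.64 and was not called (limma, adjusted p = 0.0541), but was called higher under 4 of 17 alternatives, among them without 3D replicate 3 (0.0456) and with protein-coding nuclear genes only (0.0415). The part of these lists in the splicing results was not tested.

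Of the 59 members 49 reached a mean of 1 TPM and were tested. The lowest group mean among them was 1.41 TPM, so none passed the filter through 1 group alone. The 10 others were listed at a mean of at most 0.392 TPM: the brain-enriched CELF3, CELF4, CELF5 and CELF6, RBFOX1 of neurons and muscle, the neuronal RBFOX3, and HNRNPCL1 to HNRNPCL4, intronless relatives of HNRNPC that were listed at 0 in every library. HNRNPA1 was the most abundant member, at 1318 ± 70.3 TPM in 3D and 1284 ± 306 TPM in 2D (SD, n = 3 each). All members together summed to 7966, 7940.1 and 8087 TPM in 3D and to 6090.4, 5974 and 8099.9 TPM in 2D, with 2D replicate 3 alone above the 3D range.

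The data show a modest rise of several SR and hnRNP genes in 3D and no called fall. SRSF5, SRSF6, TRA2A, HNRNPDL, HNRNPH1 and HNRNPH2 rose, by log2 fold changes of 0.47 to 1.04. These were 6 of 49 tested members (12.2%), against 10.2% of all tested genes called higher, so over all abundances the share of called members was near the background and is no result about the group. None of the 49 was called lower by limma, against 2.12% of all tested genes. At an unadjusted p under 0.05, 2 of the 49 were lower, a smaller share than the 8.25% (1241 of 15042) of all tested genes. At the same threshold 20 of the 49 were higher, a larger share than the 23.2% (3485 of 15042) of all tested genes. Neither difference in share was tested. The median log2 fold change of the members was 0.31, with 40 positive and 9 negative values, and the median over all tested genes was 0.12. Under median-ratio scaling, which shifted the median of all genes to -0.03, that of the members was 0.13 with 32 positive values. That scaling also evened the calls over all tested genes, to 931 higher and 662 lower, against 1536 higher and 319 lower without it. Among the 3009 tested genes of highest mean TPM, the 30 members had a median of 0.33, and all genes had -0.03. These medians are descriptions, not tests. All 6 called members were among these 30, a share of 20.0%, against 8.81% of all 3009 genes.

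**Figure D1:**
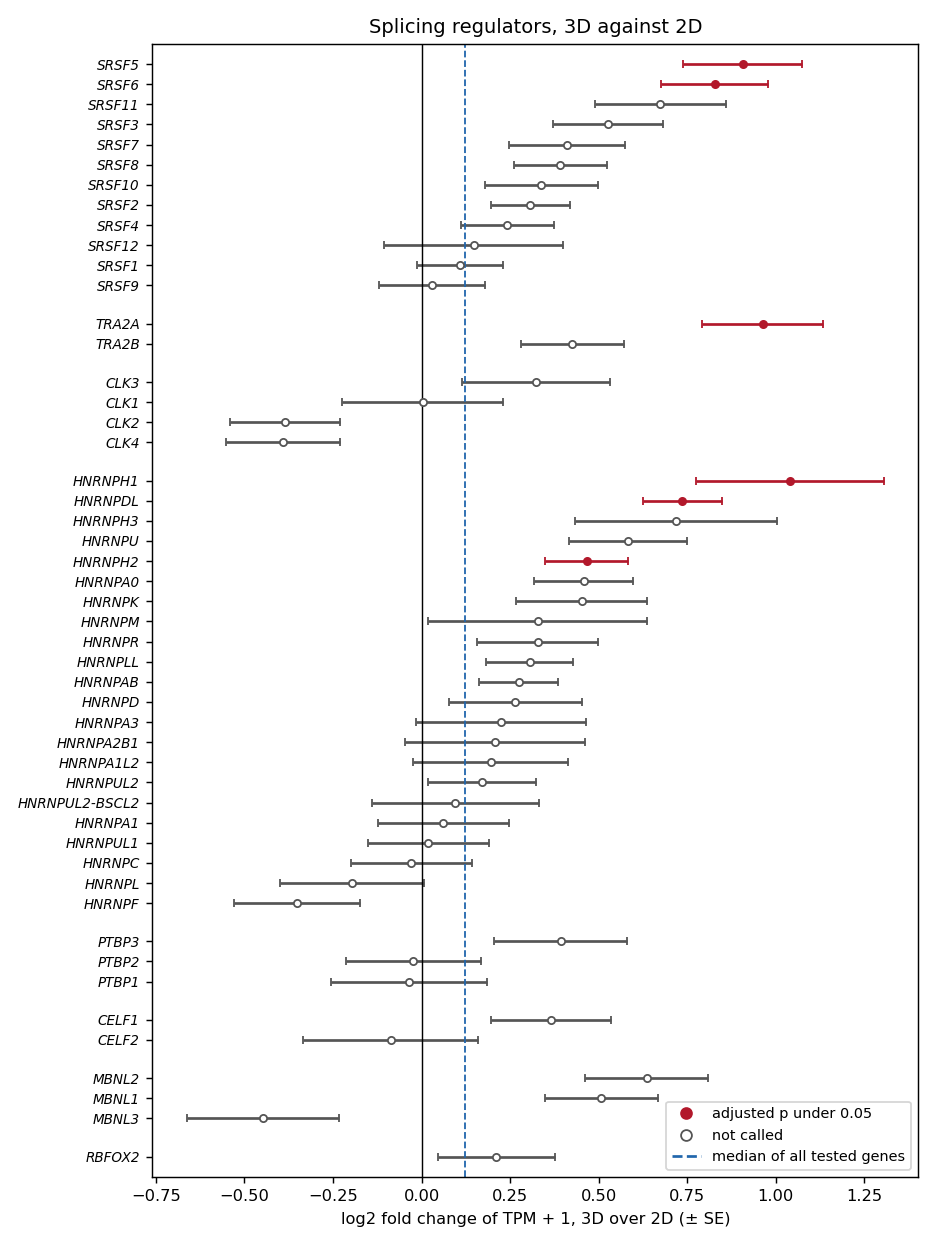
Log2 fold change of TPM + 1, 3D over 2D, with its standard error, for the 49 tested members, grouped by family. Filled red points mark the 6 genes called by limma, and the dashed line marks the median of all tested genes, 0.12.

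The upstream sequences of the called genes that have a single start in the RefSeq promoter table are shown first. Whether these windows regulate the genes, or have a part in their rise, was not tested. Each is the 250 bases before the start on the plus strand of GRCh38.p14, at chrX:101407972-101408221 for HNRNPH2, chr14:69766892-69767141 for SRSF5 and chr20:43457646-43457895 for SRSF6. Capitals mark matches, on either strand, to CCAAT boxes, GC boxes and ETS sites, which were among 7 motifs searched.
HNRNPH2: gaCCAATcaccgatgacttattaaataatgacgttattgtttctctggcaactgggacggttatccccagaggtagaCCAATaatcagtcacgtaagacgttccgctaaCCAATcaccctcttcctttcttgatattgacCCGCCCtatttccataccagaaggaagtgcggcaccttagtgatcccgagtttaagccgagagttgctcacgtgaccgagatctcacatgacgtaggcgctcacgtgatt
SRSF5: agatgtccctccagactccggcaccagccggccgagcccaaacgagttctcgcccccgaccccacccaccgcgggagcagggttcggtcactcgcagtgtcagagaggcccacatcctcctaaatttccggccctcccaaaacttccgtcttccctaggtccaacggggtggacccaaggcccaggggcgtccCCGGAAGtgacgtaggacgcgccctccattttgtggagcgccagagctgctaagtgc
SRSF6: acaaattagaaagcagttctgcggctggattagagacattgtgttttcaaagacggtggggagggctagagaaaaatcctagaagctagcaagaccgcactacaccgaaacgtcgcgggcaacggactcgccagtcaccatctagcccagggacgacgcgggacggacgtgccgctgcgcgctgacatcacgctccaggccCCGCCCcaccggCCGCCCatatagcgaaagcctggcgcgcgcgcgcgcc

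HNRNPH2 held 3 CCAAT boxes and 1 GC box, SRSF6 held 2 GC boxes and SRSF5 held 1 ETS site. The CCAAT box was searched as CCAAT and stood in 32.0% of all 35116 promoters of the table. The GC box was searched as GGGCGG and stood in 42.6%. The ETS site, searched as CCGGAAG, stood in 8.52%. The other motifs matched none of the 9 windows that the table gives for the called genes. They were the AP-1 site TGACTCA, found in 4.20% of all promoters, and the cAMP response element TGACGTCA, which does not contain it, found in 1.65%. The TATA box TATAAA was found in 10.7% of all promoters. The heat shock element, searched as its repeated GAA and TTC units with 2 free bases between them, was found in 0.441%. Over the 106 windows of the 54 members with an entry, a GC box stood in 50.9% and a CCAAT box in 34.9%. The median GC content was 62.2% in these windows and 58% in all promoters, and its part in the GC box share was not tested. A match is a description of letters in a window and shows no binding. TRA2A has no entry in the table.

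SRSF5 (ENSG00000100650, chr14:69726900-69772005), an SR protein that binds exonic enhancers, had the largest change of the SR family. It stood at 412, 388 and 307 TPM in the 3D libraries, against 205, 217 and 166 TPM in the 2D libraries. The groups did not overlap, and replicate 3 was the lowest of each group. The means were 369 ± 55.5 TPM in 3D and 196 ± 26.8 TPM in 2D (log2 fold change 0.91, SE 0.17, limma adjusted p = 0.0170). SRSF6 (ENSG00000124193, chr20:43457928-43464247), a close relative of SRSF5 and SRSF4, had 178, 161 and 135 TPM in 3D, against 97.9, 87.1 and 79.7 TPM in 2D. Replicate 3 was likewise the lowest in each group, and the groups did not overlap (log2 fold change 0.83, SE 0.15, limma adjusted p = 0.0164). The SRSF5 call was lost without 3D replicate 1 or 2 (adjusted p = 0.0796 and 0.0748), without 2D replicate 1 or 2 (0.0508 and 0.0510), and with no filter on low values (0.0507). The SRSF6 call was lost without 3D replicate 1 or 2 (0.0763 and 0.0706) and without 2D replicate 2 (0.0674).

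The other 10 SR genes had positive log2 fold changes and were not called. Under median-ratio scaling of the libraries SRSF1, SRSF9 and SRSF12 had negative values, and under quantile normalization SRSF12 did. Of the 12 SR genes 8 had every 3D library above every 2D library, against 27.3% of all tested genes. SRSF11 (log2 fold change 0.67, limma adjusted p = 0.0534) and SRSF3, the smallest SR protein (0.53, adjusted p = 0.0646), lay nearest to the threshold. SRSF11 had 197, 270.3 and 172 TPM in 3D and 118, 135 and 139 TPM in 2D. SRSF3 had 300.0, 247 and 287 TPM in 3D and 175, 176 and 229 TPM in 2D. Neither gene's groups overlapped, and 2D replicate 3 of SRSF3 came nearest to the 3D range. SRSF7, which carries a zinc knuckle beside its RNA recognition motif, had 0.41, SRSF8, a retrotransposed relative of SRSF2, 0.39, and SRSF10, a splicing repressor when dephosphorylated, 0.34. SRSF2, which stays in the nucleus, had 0.31, and SRSF4 0.24. SRSF12 was far less abundant, averaging 4.88 ± 1.10 TPM in 3D and 4.40 ± 1.55 TPM in 2D (SD, n = 3 each), and had 0.15. SRSF1, the founding SR protein and a known oncoprotein, had 156, 139 and 132 TPM in 3D and 126, 133 and 136 TPM in 2D, and the groups overlapped (0.11, adjusted p = 0.571). SRSF9 had 0.03. Against SRSF1 in the same library, the ratio of SRSF5 was 2.64, 2.78 and 2.33 in 3D and 1.63, 1.63 and 1.22 in 2D, and that of SRSF6 averaged 1.11 ± 0.0724 in 3D and 0.673 ± 0.0990 in 2D (SD, n = 3 each). All 3D ratios lay above all 2D ratios for both genes (exact two-sided permutation p = 0.1, the smallest possible here, 0.12 after Benjamini-Hochberg adjustment). Both genes were called from these same libraries, so the separation is a description and adds no support to the calls.

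TRA2A and TRA2B, the human counterparts of Drosophila transformer-2, bind purine-rich exonic enhancers. TRA2A (ENSG00000164548, chr7:23504780-23532041) had 94.2, 85.3 and 81.2 TPM in 3D, against 37.2, 41.0 and 55.9 TPM in 2D. It was the called gene with the second largest change, with a log2 fold change of 0.96 (SE 0.17, limma adjusted p = 0.0157). The groups did not overlap, and 2D replicate 3 was the highest of its group. The call was lost without 3D replicate 1 or 2 (adjusted p = 0.0742 and 0.0653) and without 2D replicate 2 (0.0674). TRA2B had 109, 103 and 127 TPM in 3D, against 77.0, 79.0 and 96.3 TPM in 2D. Its groups did not overlap either, but it was not called (0.43, adjusted p = 0.0925). Within each library the ratio of TRA2A to TRA2B, which no scaling of libraries can change, was 0.863, 0.825 and 0.639 in 3D and 0.482, 0.519 and 0.581 in 2D. The 3D ratios lay above all 2D ratios, and the exact two-sided permutation test gave p = 0.1, the smallest that 3 against 3 libraries allow (0.12 after Benjamini-Hochberg adjustment over 12 such ratios). These 12 pairs were chosen after their values were seen, and the called genes among them were called from the same libraries. Their separations, here and below, are descriptions and add no support to the calls.

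**Figure D2:**
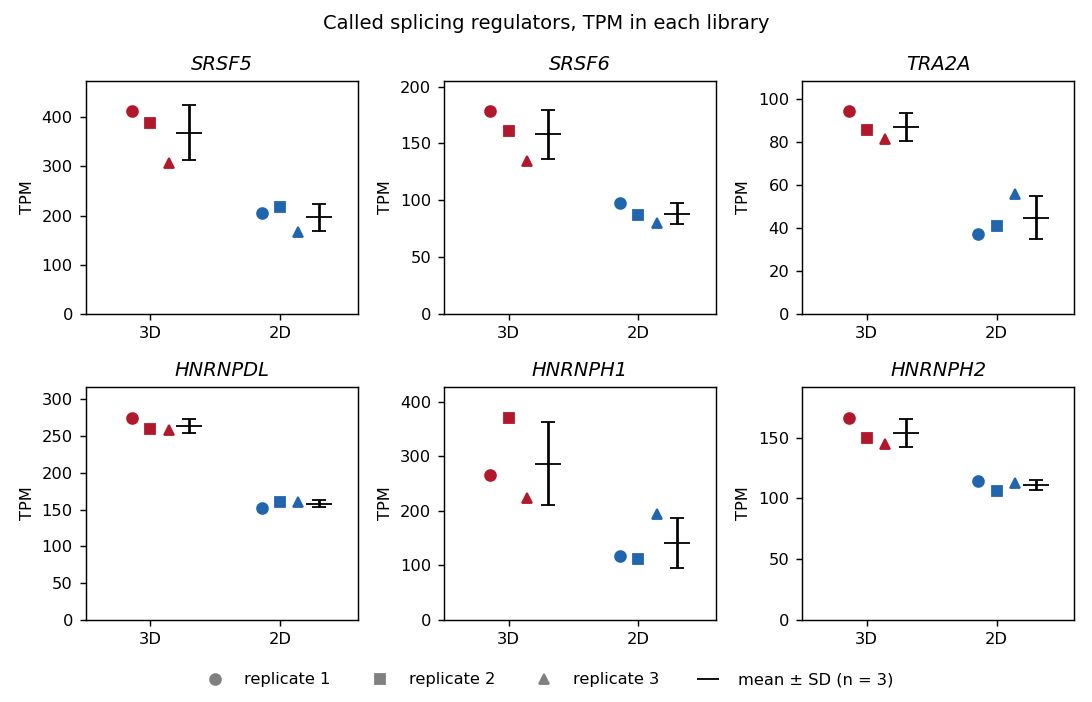
TPM in each library for the 6 called genes, 3D left and 2D right, with symbols for the replicate number and bars for the mean ± SD (n = 3). In each panel every 3D library lies above every 2D library, and for HNRNPH1 these come close, at 223 TPM in 3D replicate 3 and 193 TPM in 2D replicate 3.

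The CLK kinases, which phosphorylate SR proteins and release them from nuclear speckles, gave no call. At an unadjusted p under 0.05 CLK2 and CLK4 were lower and none was higher. Whether they differ from the SR genes in their response was not tested. CLK2 had 25.0, 30.7 and 35.4 TPM in 3D and 41.9, 36.8 and 40.4 TPM in 2D (log2 fold change -0.39, limma adjusted p = 0.138). CLK4 had 9.68, 11.0 and 10.5 TPM in 3D and 14.5, 16.3 and 11.4 TPM in 2D (-0.39, adjusted p = 0.147). For both, every 3D library lay below every 2D library, against 9.4% of all tested genes. CLK1, the most abundant of the family, had 66.7, 80.1 and 87.0 TPM in 3D and 73.3, 108 and 58.4 TPM in 2D. Its value of 0.00 was negative under both rescalings, and its 2D libraries spread more widely than the groups differed. CLK3 had 0.32 (adjusted p = 0.325).

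HNRNPDL (ENSG00000152795, chr4:82422564-82430408), a relative of HNRNPD that binds AU-rich RNA, had the smallest adjusted p of the members. It stood at 275, 259 and 258 TPM in 3D, against 152, 161 and 161 TPM in 2D. The groups lay far apart relative to their spread, with means of 264 ± 9.63 TPM in 3D and 158 ± 4.88 TPM in 2D (log2 fold change 0.74, SE 0.11, limma adjusted p = 0.00959). Its call was lost without 3D replicate 1 (adjusted p = 0.0626). The paralog HNRNPD, also called AUF1, had 215, 195 and 237 TPM in 3D and 165, 148 and 234 TPM in 2D and was not called (0.27, adjusted p = 0.369). The ratio of HNRNPDL to HNRNPD was 1.28, 1.33 and 1.09 in 3D and 0.924, 1.09 and 0.689 in 2D. Only 3D replicate 3 and 2D replicate 2 came close, at 1.0870 and 1.0869 (exact two-sided permutation p = 0.1, 0.12 after adjustment).

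The hnRNP H and F proteins bind runs of G. HNRNPH1 (ENSG00000169045, chr5:179614178-179634784) had 266, 371 and 223 TPM in 3D, against 116, 111 and 193 TPM in 2D. It had the largest log2 fold change of the members, 1.04 (SE 0.26, limma adjusted p = 0.0432), and the widest spread among the called genes. The groups did not overlap, but 2D replicate 3 stood well above the other 2D libraries. Without it the value was 1.29, and without both libraries numbered 3 it was 1.46. HNRNPH2 (ENSG00000126945, chrX:101408295-101414133) had 166, 150 and 145 TPM in 3D, against 114, 106 and 113 TPM in 2D (log2 fold change 0.47, SE 0.12, adjusted p = 0.0427). Both calls were lost without 3D replicate 1 or 2 (limma, adjusted p = 0.121 and 0.144 for HNRNPH1, 0.175 and 0.121 for HNRNPH2) and without 2D replicate 1 or 2 (0.118 and 0.145 for HNRNPH1, 0.0967 and 0.145 for HNRNPH2). HNRNPH2 also lost it without 2D replicate 3 (0.0503). Both were also lost under median-ratio scaling (0.0736 for HNRNPH1 and 0.155 for HNRNPH2), under quantile normalization (0.0613 and 0.0540), with no filter on low values (0.113 and 0.0640) and with no trend (0.0566 and 0.0664). HNRNPH2 shares its locus with the readthrough gene RPL36A-HNRNPH2, which averaged 0.487 TPM in 3D and 0.567 TPM in 2D.

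HNRNPF, the third gene of that group, was not called and had lower means in 3D. It had 196, 164 and 161 TPM in 3D and 266, 229 and 176 TPM in 2D, and the groups overlapped (log2 fold change -0.35, limma adjusted p = 0.220). The ratio of HNRNPH1 to HNRNPF was 1.35, 2.26 and 1.39 in 3D and 0.438, 0.484 and 1.10 in 2D. The ratio of HNRNPH2 to HNRNPF was 0.849, 0.915 and 0.901 in 3D and 0.428, 0.462 and 0.638 in 2D. Both ratios were higher in every 3D library than in any 2D library (exact two-sided permutation p = 0.1, 0.12 after adjustment). HNRNPH3, a smaller relative, had 97.2, 122 and 97.9 TPM in 3D and 51.1, 48.5 and 103 TPM in 2D (0.72, adjusted p = 0.134). Here 2D replicate 3 lay inside the 3D range.

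In other hnRNP genes 2D replicate 3 stood high as well. HNRNPA2B1, which also sorts RNA into vesicles and along axons, had 562, 499.9 and 575 TPM in 3D and 398, 365 and 721 TPM in 2D. HNRNPM had 151, 168 and 155 TPM in 3D and 115, 81.3 and 210.4 TPM in 2D. HNRNPK, which binds runs of C, had 453, 469 and 485 TPM in 3D and 313, 285 and 450.1 TPM in 2D. In each of the 3, 2D replicates 1 and 2 lay below every 3D library and 2D replicate 3 lay above them, above all 3D libraries for HNRNPA2B1 and HNRNPM. HNRNPU, a nuclear scaffold protein, had 218, 215 and 206 TPM in 3D and 136, 118 and 179 TPM in 2D (log2 fold change 0.58, limma adjusted p = 0.0604), and COX20 overlaps it on the opposite strand at 21.4 TPM in 3D and 16.8 TPM in 2D. HNRNPA0 (0.46), HNRNPAB (0.27), HNRNPK (0.45), HNRNPLL (0.31) and HNRNPU had every 3D library above every 2D library without a call. With the 3 called genes, 8 of the 22 tested hnRNP genes (36.4%) had this separation, against 27.3% of all tested genes.

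The most abundant hnRNP genes were not called. HNRNPA1, which silences exons and often opposes SRSF1, had 1285, 1270.2 and 1399 TPM in 3D and 1076, 1141 and 1635 TPM in 2D (log2 fold change 0.06, limma adjusted p = 0.841), and its value was -0.12 under median-ratio scaling. HNRNPC, which binds runs of U, had 596, 611 and 728 TPM in 3D and 571, 613 and 806 TPM in 2D (-0.03, adjusted p = 0.922). For both the groups overlapped, and 2D replicate 3 was the highest of the 6 libraries. The SE was 0.18 for HNRNPA1 and 0.17 for HNRNPC, so these values leave room for changes of either sign. Copies share reads with these genes: the 75 HNRNPA1 pseudogenes in the table summed to 59.0 to 67.4 TPM in 3D and 45.0 to 69.8 TPM in 2D, and how reads were divided among them is uncertain. HNRNPL, which binds CA repeats, had -0.20, HNRNPA3 0.23, HNRNPR 0.33, HNRNPUL2 0.17 and HNRNPUL1 0.02. The intronless copy HNRNPA1L2 had 0.19. HNRNPUL2-BSCL2, a readthrough that shares exons with HNRNPUL2, had 0.10.

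Summed over the family, SR genes had 1997, 1887 and 1730.3 TPM in 3D and 1285, 1316 and 1405 TPM in 2D. The lowest 3D sum lay above the highest 2D sum, and it did so after median-ratio scaling too, at 1631 against 1502. The hnRNP genes summed to 5356, 5383 and 5689 TPM in 3D and 4299, 4136 and 6068 TPM in 2D. For hnRNP genes the groups overlapped, and 2D replicate 3 had the highest sum of all libraries. HNRNPA1, HNRNPC and HNRNPA2B1 carry much of that sum.

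**Figure D3:**
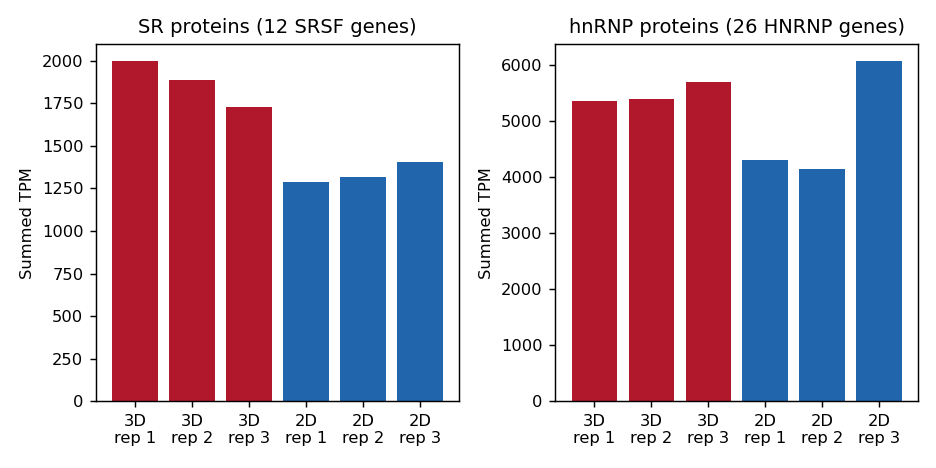
Summed TPM of the 12 SRSF genes and of the 26 HNRNP genes in each library, 3D in red and 2D in blue. The SR sums of 3D, 1730.3 to 1997, lie above those of 2D, 1285 to 1405, while the hnRNP sum of 2D replicate 3, 6068, exceeds every other.

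The position of 2D replicate 3 was measured over the members. Its log2(TPM + 1) lay above the mean of 2D replicates 1 and 2 by a median of 0.51 over the 22 hnRNP genes and of 0.11 over the 12 SR genes, and by -0.02 over all tested genes. The largest gaps were in HNRNPM (1.11), HNRNPH3 (1.04) and HNRNPA2B1 (0.92), whereas HNRNPF (-0.48), SRSF5 (-0.34) and CLK1 (-0.59) lay lower in that library. It was the highest of the 2D libraries in 34 of 49 members (69.4%), against 36.3% of all tested genes. In 3D the third library differed from the other 3D libraries by a median of 0.02 over the hnRNP genes and -0.12 over the SR genes. The share of TPM in protein-coding nuclear genes was 75.4% to 83.0% in 3D and 77.5% to 80.7% in 2D, with 2D replicate 3 the lowest of its group. By this measure 3D replicate 3 stood further apart, at 83.0% against 75.8% and 75.4% in the other 3D libraries. Mitochondrial transcripts took 19.4%, 19.4% and 12.3% of the TPM in 3D and 14.4%, 15.7% and 17.5% in 2D. The fit with protein-coding nuclear genes only leaves out these transcripts and the noncoding genes. It called 9 of 49 members higher (18.4%), against 12.9% of all tested genes. The part of the mitochondrial transcripts alone was not tested. Whether culture, handling or sequencing set 2D replicate 3 apart was not tested.

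**Figure D4:**
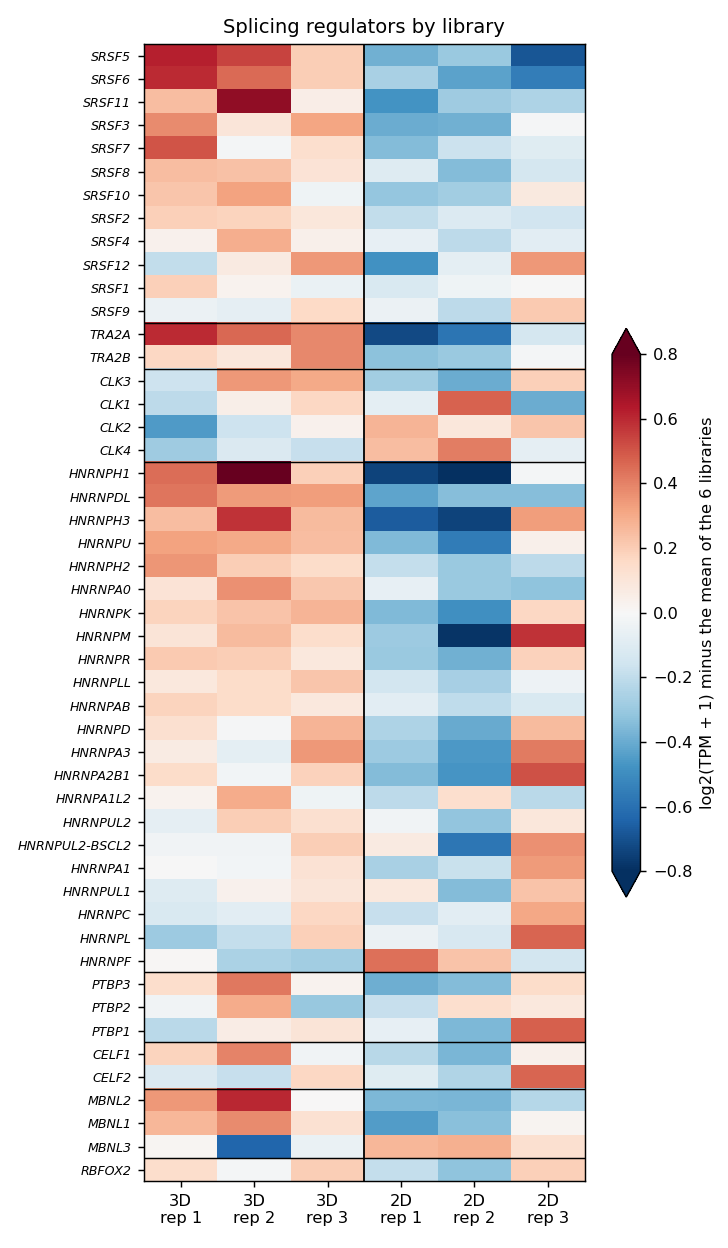
Log2(TPM + 1) of the 49 tested members in each library, minus the gene's mean over the 6 libraries, with 3D columns left of 2D columns and lines between families. Most hnRNP rows are low in 2D replicates 1 and 2 and near or above the mean in 2D replicate 3, with HNRNPM 1.11 above the other 2D libraries, while SRSF5 and SRSF6 are low in all 3 2D columns.

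The number of called members turned on single libraries. Without 2D replicate 3, 14 of 49 members (28.6%) were called higher, against 10.5% of all tested genes. Added calls included HNRNPH3 (log2 fold change 1.06, limma adjusted p = 0.00755), HNRNPU (0.75, 0.0138), HNRNPM (0.70, 0.0391), HNRNPK (0.65, 0.0184), SRSF3 (0.65, 0.0245), MBNL1 (0.65, 0.0281) and TRA2B (0.53, 0.0474). Without both libraries numbered 3, 20 members (40.8%) were called higher, against 16.3% of all tested genes, and none lower, against 8.97%. By contrast 0 members were called without 3D replicate 1, 1 without 3D replicate 2, 3 without 2D replicate 1 and 1 without 2D replicate 2. In these 4 fits 2.44%, 2.61%, 4.84% and 2.82% of all tested genes were called higher. HNRNPDL was the 1 member still called without 3D replicate 2 or without 2D replicate 2.

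**Figure D5:**
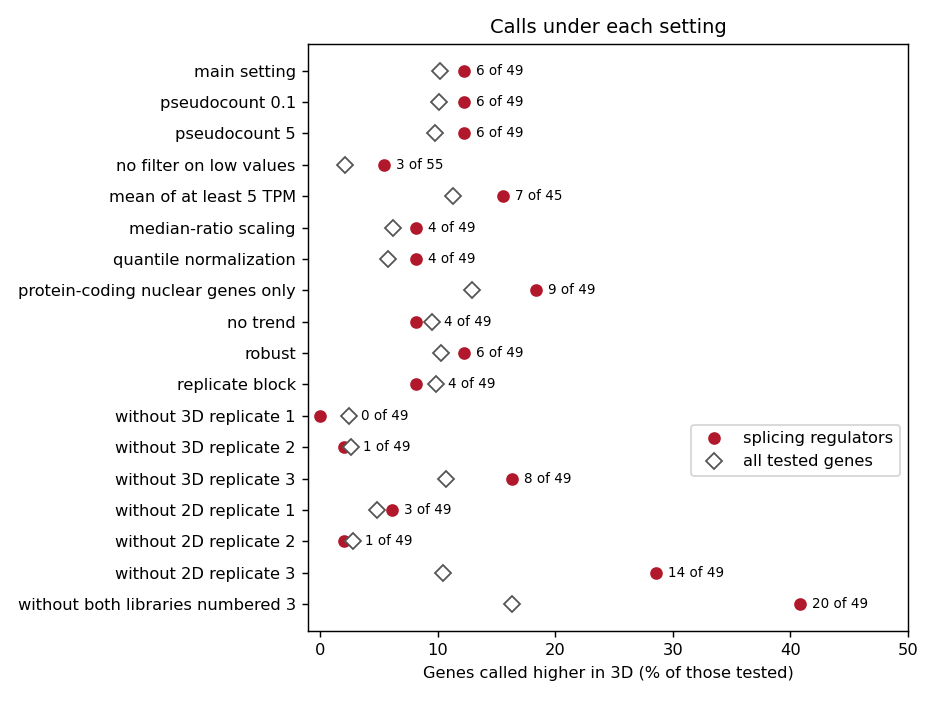
Percentage of tested genes called higher in 3D under each setting, for the splicing regulators (red circles, with their numbers) and for all tested genes (open diamonds). The members' share exceeds that of all genes by most without 2D replicate 3, at 28.6% against 10.5%, and without both libraries numbered 3, at 40.8% against 16.3%, and falls to 0 without 3D replicate 1.

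No tested MBNL, PTBP, CELF or RBFOX gene was called in the main fit. MBNL1 and MBNL2, which drive adult splicing patterns and are sequestered by expanded repeats in myotonic dystrophy, had log2 fold changes of 0.51 and 0.64 (limma adjusted p = 0.0781 and 0.0527). MBNL1 had 42.7, 46.2 and 38.6 TPM in 3D and 25.6, 27.8 and 36.0 TPM in 2D. MBNL2 had 26.8, 32.2 and 20.9 TPM in 3D and 16.1, 16.0 and 17.7 TPM in 2D. MBNL3, the least abundant, had 4.01, 2.20 and 3.78 TPM in 3D and 4.96, 5.03 and 4.41 TPM in 2D (-0.45, adjusted p = 0.197). None of the 3 genes had overlapping groups, and none was called; of all tested genes, 27.3% had every 3D library above and 9.4% every 3D library below every 2D library. The ratio of MBNL1 to MBNL3 was 10.6, 21.0 and 10.2 in 3D and 5.17, 5.53 and 8.16 in 2D (exact two-sided permutation p = 0.1).

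PTBP1, which silences exons with CU-rich tracts, had 102, 123 and 127 TPM in 3D and 113, 91.9 and 165 TPM in 2D (log2 fold change -0.04, limma adjusted p = 0.926). PTBP2, its counterpart in neurons, had 9.86, 12.6 and 7.99 TPM in 3D and 8.77, 11.2 and 10.8 TPM in 2D. The groups of both overlapped, and the ratio of PTBP1 to PTBP2 averaged 12.0 ± 3.42 in 3D and 12.2 ± 3.61 in 2D (exact two-sided permutation p = 1). PTBP3 had 0.39 (adjusted p = 0.196). CELF1, which binds GU-rich RNA and often opposes MBNL proteins, had 20.8, 24.3 and 17.9 TPM in 3D and 15.5, 13.9 and 18.8 TPM in 2D (0.37, adjusted p = 0.185), and CELF2 had -0.09. RBFOX2, the most widely expressed RBFOX gene, had 30.2, 27.0 and 31.5 TPM in 3D and 23.9, 21.7 and 31.4 TPM in 2D (0.21, adjusted p = 0.410). In CELF1 and RBFOX2 2D replicate 3 reached into the 3D range.

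The annotated transcripts of the members, which the rule did not use, were also counted. In GENCODE release 29, 34 of the 49 tested members (69.4%) have at least 1 transcript of the nonsense-mediated decay type, against 43.5% of the 12228 other tested protein-coding genes, and 5 of the 6 called members do. The median number of annotated transcripts was 12 for the members and 8 for the others, and genes with more transcripts have more chances to hold such a type. Gene-level TPM does not divide these forms, so the share of productive RNA was not measured.

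Other splicing genes were called about as often as all tested genes. Of 164 such genes in 6 lists, 154 identifiers were tested, 15 (9.74%) were higher, against 10.2% of all tested genes, 2 were lower, against 2.12%, and 137 were not called, with a median log2 fold change of 0.12, equal to that of all tested genes. None of 28 U1, U2 and branch-site factors was called, with 4 higher and 1 lower at an unadjusted p under 0.05. Of 14 Sm and LSm proteins, which form the rings of the snRNPs, LSM4 fell, at 64.7 ± 11.2 TPM in 3D and 107 ± 16.4 TPM in 2D (-0.72, limma adjusted p = 0.0379), and 12 of 14 had negative values (14 under median-ratio scaling). Of 39 tri-snRNP and NTC proteins 3 rose, among them PRPF3 (36.0 ± 4.39 TPM in 3D and 22.9 ± 1.99 TPM in 2D) and CDC40 (16.9 ± 1.22 TPM in 3D and 11.1 ± 0.0153 TPM in 2D), and none fell. Each of these calls was lost without 3D replicate 1 or 2 and without 2D replicate 1 or 2, LSM4 also without 2D replicate 3 and CDC40 also without 3D replicate 3 (limma, highest adjusted p = 0.129 for LSM4, 0.113 for PRPF3 and 0.108 for CDC40). PRPF3 and CDC40 were not called under median-ratio scaling.

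A list of SR protein kinases, DYRK kinases, PPP1R8 and import receptors gave 4 calls among 9 tested genes. Of all tested genes 10.2% were called higher. All 9 had positive values (7 under median-ratio scaling). Every call but SRPK1 was a DYRK kinase, and SRPK2, PRPF4B, PPP1R8, TNPO1 and TNPO3 were not called. The number of calls in this list depended on the setting. It was 2 under median-ratio scaling and 1, DYRK2, under quantile normalization and with no filter on low values. It was also 1, DYRK2, in each fit that lacked 3D replicate 1, 3D replicate 2, 2D replicate 1 or 2D replicate 2. In these fits 2.15% to 6.20% of all tested genes were called higher. DYRK2, a kinase of the DYRK family related to the CLK kinases, had 22.6 ± 4.05 TPM in 3D and 8.23 ± 1.36 TPM in 2D (mean ± SD, n = 3 each; log2 fold change 1.35, limma adjusted p = 0.00661). Its call held under each of the 17 alternatives. DYRK1A, which phosphorylates several splicing factors, had 11.0 ± 1.11 TPM in 3D and 6.54 ± 0.643 TPM in 2D (0.67). The other calls were DYRK1B (0.61), lost under 8 of the 17 alternatives, and SRPK1, the cytoplasmic SR kinase (0.50), lost under 12 of them and whichever library was left out. Of 19 exon junction complex and decay genes 4 rose and none fell, led by PNN, a speckle protein associated with that complex, with 86.5 ± 15.7 TPM in 3D and 48.7 ± 7.16 TPM in 2D (0.81), and SMG1, the kinase that starts nonsense-mediated decay, with 11.8 ± 1.90 TPM in 3D and 6.99 ± 1.28 TPM in 2D (0.68). Of 45 tested identifiers of other regulators 4 rose, led by RBM38, an RNA-binding target of p53, with 12.9 ± 1.54 TPM in 3D and 6.11 ± 0.419 TPM in 2D (0.96, adjusted p = 0.0103), and KHDRBS3, a STAR family protein, with 13.9 ± 3.14 TPM in 3D and 7.93 ± 0.767 TPM in 2D (0.72). MATR3 appears under 2 identifiers, 1 called higher at 233 ± 6.06 TPM in 3D and 158 ± 17.8 TPM in 2D and 1 called lower at 7.23 ± 0.738 TPM in 3D and 15.5 ± 4.22 TPM in 2D, so the division of its reads is uncertain. RBM38 lost its call without 3D replicate 1 or 2 (limma, highest adjusted p = 0.0578), and DYRK1A, DYRK1B, PNN and SMG1 without 3D replicate 1 or 2 and without 2D replicate 1 or 2 (0.106, 0.123, 0.107 and 0.158). SMG1 also lost it without 3D replicate 3, with a pseudocount of 5 and with no trend, and kept it under 6 of 17 alternatives. PNN and SMG1 were not called under median-ratio scaling or quantile normalization. KHDRBS3 lost its call whichever library was left out (highest 0.144), and under median-ratio scaling and quantile normalization. Without 3D replicate 1 or 2 the number of higher genes over the 6 lists was 1 each, and without 2D replicate 1 or 2 it was 2 each. Of all tested genes 2.44%, 2.61%, 4.84% and 2.82% were called higher in these fits. Without both libraries numbered 3 the number was 30 of 154, against 16.3% of all tested genes.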

How the data were processed

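RNA of 3 3D and 3 2D libraries of HCC827 was analysed from 1 table in which the authors deposited TPM per gene, rounded to 2 decimals. The build hg38 and the tools STAR 2.7.0d, RSEM 1.3.1 and cutadapt 2.3 are listed, per the submitters' processing notes, with no role or order. Annotation release, strand setting and filters were not stated, which leaves overlapping and antisense genes uncertain. The depth per library is unknown, since TPM keeps none. TPM is also a share, so a rise of some genes lowers the rest.

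Groups came from the sample titles. Of all genes, those averaging 1 TPM or more entered a fit of log2(TPM + 1) by limma 3.58.1 (eBayes with a trend) in R 4.3.3, with no covariate, two-sided, and called at an adjusted p under 0.05. Within-library ratios were tested by exact permutation (scipy 1.17.1). The fit was tested on simulated data. The members, lists, tests and alternatives were chosen with earlier results of these data known. Every called member, the most abundant member of each family, and up to 2 called genes per list and direction were named by rule, with the 2 largest changes of the stress lists; SYT1, TUBB3 and other single markers were named after their values were seen. Positions and transcript types came from GENCODE release 29 on GRCh38, in which all 59 members were found, and promoters from RefSeq on GRCh38.p14. Alternatives were pseudocounts of 0.1 and 5, quantile normalization, no filter, median-ratio scaling, protein-coding nuclear genes only, a mean of 5 TPM, no trend, the robust option, the replicate block, and libraries left out. No protein sequence was used here. Figures were drawn with matplotlib 3.10.9.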

Additional observations from a re-analysis of the deposited data

How the results depend on the processing

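The 6 calls among the members held with pseudocounts of 0.1 and 5, with the robust option, at a mean of 5 TPM, with protein-coding nuclear genes only, without 3D replicate 3 and when the libraries numbered 3 of both groups were left out. At a mean of 5 TPM MBNL2 was added, for 7 of 45 members (15.6%), against 11.3% of all tested genes. With protein-coding nuclear genes only HNRNPU, SRSF3 and SRSF11 were added, for 9 of 49 (18.4%), against 12.9%. Without 3D replicate 3 MBNL2 and SRSF11 were added, for 8 of 49 (16.3%), against 10.7%. Over the 17 alternatives the limma adjusted p lay between 0.00680 and 0.0626 for HNRNPDL, 0.00382 and 0.0796 for SRSF5, 0.00694 and 0.0763 for SRSF6, 0.00326 and 0.0742 for TRA2A, 0.00349 and 0.145 for HNRNPH1, and 0.0273 and 0.175 for HNRNPH2. SRSF5, SRSF6, TRA2A and HNRNPDL also held under median-ratio scaling, under quantile normalization and with no trend. With no filter 3 members and 5 other splicing genes were called higher, against 6 and 15, and 0 others were lower, against 2. In that fit 2.15% of all tested genes were called higher, against 5.45% of the members, and 86 of 33924 were lower. Without both libraries numbered 3 the numbers were 20 members, 30 others higher and 4 others lower. Of all tested genes 16.3% were then higher and 8.97% lower. Over the fits that left out 1 library, 0 to 14 members and 1 to 19 others were higher, and 0 to 3 others were lower. In those fits 2.44% to 10.7% of all tested genes were higher, and 29 to 563 genes were lower. Of the 154 other splicing genes tested, 3 were called higher under median-ratio scaling, 4 under quantile normalization and 7 with the replicate block. In these fits 6.20%, 5.78% and 9.83% of all tested genes were higher. With no trend 1 of the others was lower, against 260 of 15042 tested genes. No member was called lower under any of the 17 alternatives. Over these fits the number of lower genes ran from 29 of 15012 tested, without 3D replicate 1, to 1356 of 15114, without both libraries numbered 3. Where few genes of the whole table were lower, the absence of a lower member says little. The median of all tested genes was -0.03 under median-ratio scaling and -0.04 under quantile normalization, against 0.12, while that of the members was 0.13 and 0.21. Same-numbered 3D and 2D libraries deviated together with correlations of 0.10, 0.04 and 0.19, and 3D replicate 1 correlated best with 2D replicate 2 (0.13). The value of 0.19, for the libraries numbered 3, was the highest between any 3D and 2D library. With 3D replicates 1 and 2, 2D replicate 3 had -0.17 and -0.05. With 2D replicates 1 and 2, 3D replicate 3 had -0.11 and -0.14. Whether the libraries numbered 3 share a difference was not tested. The main fit does not take the numbers as pairs. With the replicate block 4 members (8.16%) were called higher, against 9.83% of all tested genes. HNRNPH1 and HNRNPH2 were not called in that fit (limma, adjusted p = 0.0546 and 0.0722).

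The log2 fold change of an uncalled member changed sign in 39 of the gene and setting combinations. Under median-ratio scaling the log2 fold changes were -0.17 for CLK1, -0.12 for HNRNPA1, -0.16 for HNRNPUL1, -0.0028 for HNRNPUL2, -0.079 for HNRNPUL2-BSCL2, -0.069 for SRSF1, -0.0013 for SRSF12 and -0.15 for SRSF9. Under quantile normalization they were -0.039 for CLK1, -0.035 for HNRNPA1L2, -0.012 for HNRNPUL1, -0.012 for HNRNPUL2-BSCL2 and -0.065 for SRSF12. Without both libraries numbered 3 they were 0.0195 for CELF2, -0.28 for CLK1, 0.029 for HNRNPC, 0.13 for PTBP1 and 0.16 for PTBP2. With 1 library left out, the values ranged over -0.23 to 0.12 for CELF2, -0.19 to 0.24 for CLK1, -0.053 to 0.25 for HNRNPA1, -0.13 to 0.12 for HNRNPC, -0.15 to 0.14 for HNRNPUL1, -0.17 to 0.30 for HNRNPUL2-BSCL2, -0.22 to 0.19 for PTBP1, -0.18 to 0.12 for PTBP2, -0.060 to 0.36 for SRSF12 and -0.068 to 0.14 for SRSF9. The cause was not tested. Unknown depth limits the genes with low TPM most.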
